A study of Homo sapiens with 8 samples.

Results

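The 9 genes described here encode the enzymes that carry farnesyl pyrophosphate through squalene and lanosterol to the sterols that have lost the methyl groups at C14 and C4. They are FDFT1, SQLE, LSS, CYP51A1, TM7SF2, LBR, MSMO1, NSDHL and HSD17B7, and they were listed by name for their step in the pathway, with earlier results of these data known. All 9 were found by identifier among the 60230 genes of the count table, and all 9 passed the filter on low counts that left 13400 genes for testing. The study asked whether plastic-related compounds change gene expression in liver cells that overexpress the cytochrome CYP2C19. RNA was sequenced from 8 samples in 4 groups of 2, and the samples held between 9791659 and 17814595 counts in total.

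All 4 groups used HepG2, a human liver cancer cell line, transfected to overexpress CYP2C19 and grown with blasticidin to keep the transfected cells. The promoter that drives the CYP2C19 transgene is not given in the sources used here, so every comparison, the control included, describes cells that carry it. The cells were seeded 24 h before treatment and received compound 4, compound 5 or compound 6, or the vehicle DMSO as the control. Treatment time was the same in every group, and the samples of each group are labelled day 1 and day 2. The day is used here as a replicate number, and replicate 1 is given first throughout. The main test ignores the day, and only alternative fits and a permutation within the day use it as a block. Each compound was given at its own IC50, so the doses were not the same in molar terms. Compounds 4 to 6 are bisphenol antioxidants of plastics. Compounds 4 and 6 share a methylene bridge and differ in the group beside each hydroxyl, tert-butyl in compound 4 and cyclohexyl in compound 6. Compound 5 has an ethylidene bridge and a pair of tert-butyl groups on each ring.

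The liver identity of the cells was checked with 8 hepatocyte genes, whose summed level was 34672 to 54340 CPM (counts scaled to a common library size), with ALB, which encodes albumin, at 14369 to 20660 CPM. This sum was lower in every treated sample, at most 44480 CPM, than in the DMSO samples, at least 50366 CPM. The single genes did not all follow the sum. By the edgeR quasi-likelihood test described below, 4, 0 and 0 of the 8 fell under compounds 4, 5 and 6. Over all genes tested, 3.91%, 2.95% and 0.0821% fell. FGB rose under compound 5 (log2-fold change 0.53, adjusted p = 0.0301). DESeq2 called 5, 2 and 4 of the 8 lower, and 616, 479 and 184 of all 13400 genes. Of the markers of other cell types, PTPRC, CD3E, COL1A2 and DCN had no count in any sample. The 4 leukocyte genes summed to 22.4 to 43.6 CPM and the 4 fibroblast genes to 5.02 to 25.4 CPM, mostly from CD68 and PDGFRB, and both sums were highest under compound 4. The 3 endothelial genes summed to at most 2.08 CPM. CYP2C19 itself had a mean of 22.0 ± 7.96 CPM in DMSO (SD, n = 2), and of 37.8 ± 9.07, 45.4 ± 10.5 and 22.6 ± 1.92 CPM with compounds 4, 5 and 6. By edgeR's quasi-likelihood test it was higher under compound 5 (log2-fold change 1.05, adjusted p = 0.0395). That call was lost without either DMSO sample, compound 5 replicate 1 or either compound 6 sample. Under compound 4 its change of 0.79 did not pass (adjusted p = 0.0858). Counts from the transgene and from the cell's own gene cannot be told apart here. The part of these shifts in the results below was not tested.

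Cholesterol is built in the endoplasmic reticulum, and the liver is a main site of its synthesis. Squalene synthesis is the first step that commits the mevalonate pathway to sterols, and the following enzymes oxidise squalene, close its rings and remove methyl groups from lanosterol. Most of their genes are known targets of the transcription factor SREBP-2. When membrane sterol is plentiful SREBP-2 is held in the endoplasmic reticulum, and when sterol is scarce it is released and binds sterol regulatory elements in promoters, often beside sites for NF-Y, which reads CCAAT, and Sp1, which reads GC boxes.

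Promoter sequence was available from RefSeq (GRCh38.p14) for 7 of the 9 genes, all but FDFT1 and SQLE. The promoters of 4 genes are printed, chosen for the genes' values and motif counts. MSMO1 had the lowest change of the 9 genes under compounds 4 and 5, LSS has the most GC boxes, and TM7SF2 and LBR encode a pair of enzymes for the same C14 reduction. Each sequence is the 250 bases before the gene's RefSeq start, on the strand of the gene, and capitals mark matches to TCACNCCA (a form of the sterol regulatory element), CCAAT or GGGCGG (the GC box) on either strand. The 4 regions are chr4:165327419-165327668 (plus strand), chr21:46228775-46229024 (minus strand), chr11:65111622-65111871 (plus strand) and chr1:225428822-225429071 (minus strand). The RefSeq start can differ from the end of the gene in the annotation used for the positions below, and 46, 50, 27 and 104 bases of these windows lie inside that gene.
MSMO1: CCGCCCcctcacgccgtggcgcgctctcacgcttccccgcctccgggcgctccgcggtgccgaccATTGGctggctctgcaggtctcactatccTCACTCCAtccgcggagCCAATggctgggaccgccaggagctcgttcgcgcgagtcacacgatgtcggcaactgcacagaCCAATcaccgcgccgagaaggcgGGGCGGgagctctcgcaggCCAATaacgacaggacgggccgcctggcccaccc
LSS: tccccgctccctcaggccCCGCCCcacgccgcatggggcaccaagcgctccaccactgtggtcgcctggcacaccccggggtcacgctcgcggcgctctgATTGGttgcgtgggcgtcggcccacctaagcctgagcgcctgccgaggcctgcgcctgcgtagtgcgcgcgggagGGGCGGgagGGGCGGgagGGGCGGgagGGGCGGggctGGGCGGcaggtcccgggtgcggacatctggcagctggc
TM7SF2: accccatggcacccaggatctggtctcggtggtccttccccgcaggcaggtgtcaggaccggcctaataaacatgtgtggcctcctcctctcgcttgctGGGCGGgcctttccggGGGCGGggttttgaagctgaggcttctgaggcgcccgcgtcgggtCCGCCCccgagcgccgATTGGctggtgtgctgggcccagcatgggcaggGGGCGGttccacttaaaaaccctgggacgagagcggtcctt
LBR: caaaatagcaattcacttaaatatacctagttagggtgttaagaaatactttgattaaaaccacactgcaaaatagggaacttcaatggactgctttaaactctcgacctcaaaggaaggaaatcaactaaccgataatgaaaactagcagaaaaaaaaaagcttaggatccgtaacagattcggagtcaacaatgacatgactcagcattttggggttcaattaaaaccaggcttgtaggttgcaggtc

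The MSMO1 promoter was the only one of the 7 with TCACNCCA, which starts 156 bases before the gene's start. In windows from 250 bases before to 50 after the start, TCACNCCA was in 3.95% of 35116 promoters, CCAAT in 34.6% and GGGCGG in 45.0%. CCAAT was in 5 of the 7 (LSS, TM7SF2, MSMO1, NSDHL and HSD17B7) and GGGCGG also in 5 of the 7 (LSS, CYP51A1, TM7SF2, MSMO1 and HSD17B7). NSDHL had 5 CCAAT matches, of which 2 on opposite strands overlap, and LSS had 7 GC boxes, 1 of them after the start. The LBR window held none of the 3 motifs and was 36.8% G and C, against 63.6% to 76.8% in the other 6. The whole CYP51A1 window lies inside the gene as the other annotation draws it. A match is a description of letters, and its absence says only that these letters are not in this window.

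**Figure D1:**
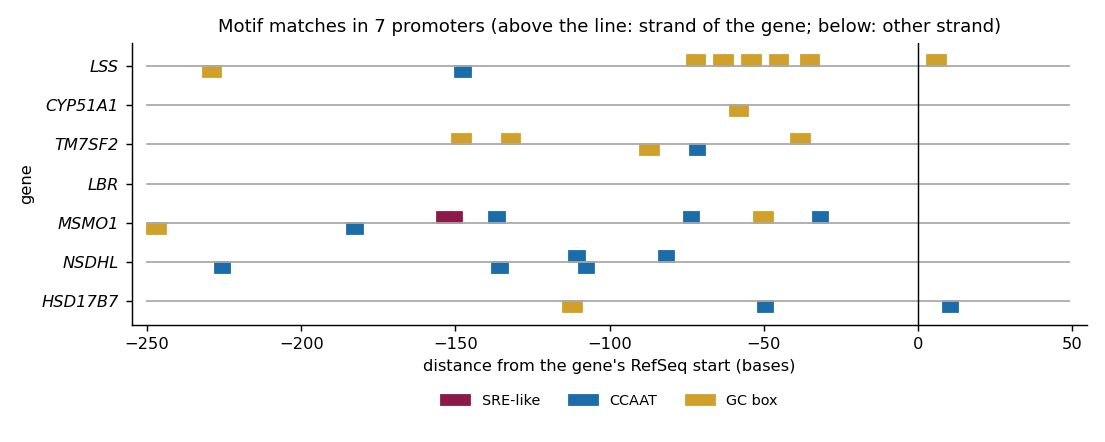
Motif matches in the promoters of 7 genes, with distance from the RefSeq start in bases on the x axis and 1 line per gene. Boxes above a line are on the strand of the gene and boxes below it on the other strand. MSMO1 carries the single TCACNCCA match, LSS has 7 GC boxes and LBR has no match.

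In all 9 genes both samples of each compound lay below both DMSO samples, which 28%, 28.5% and 26% of all 13400 genes tested also did for compounds 4, 5 and 6. The summed level of the 9 genes was 1272 ± 32.1 CPM in DMSO (mean ± SD, n = 2), and 438 ± 59.5, 457 ± 68.1 and 696 ± 21.0 CPM with compounds 4, 5 and 6, so that 34.5%, 35.9% and 54.7% of the DMSO level remained. The sums of compounds 4 and 5 overlapped (480 and 396 CPM against 409 and 505), and those of compound 6 (711 and 681) lay between them and DMSO. By the quasi-likelihood test of edgeR, at a Benjamini-Hochberg adjusted p under 0.05 over all genes tested, 9 of 9 fell under compound 4, 8 of 9 under compound 5 and 2 of 9 under compound 6. Over all 13400 genes, 3.91%, 2.95% and 0.0821% fell at this threshold and 5.6%, 5.35% and 0.493% rose. None of the 9 rose. The median log2-fold change of the 9 genes was −1.59 for both compound 4 and compound 5 and −0.95 for compound 6, against 0.01, 0 and 0.02 over all genes tested. In bulk RNA, fewer cells of a type and less RNA per cell cannot be told apart. The labels do not say that the 2 samples of a group came from separate cultures, so the p-values measure the spread between these samples, which may be technical.

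**Figure D2:**
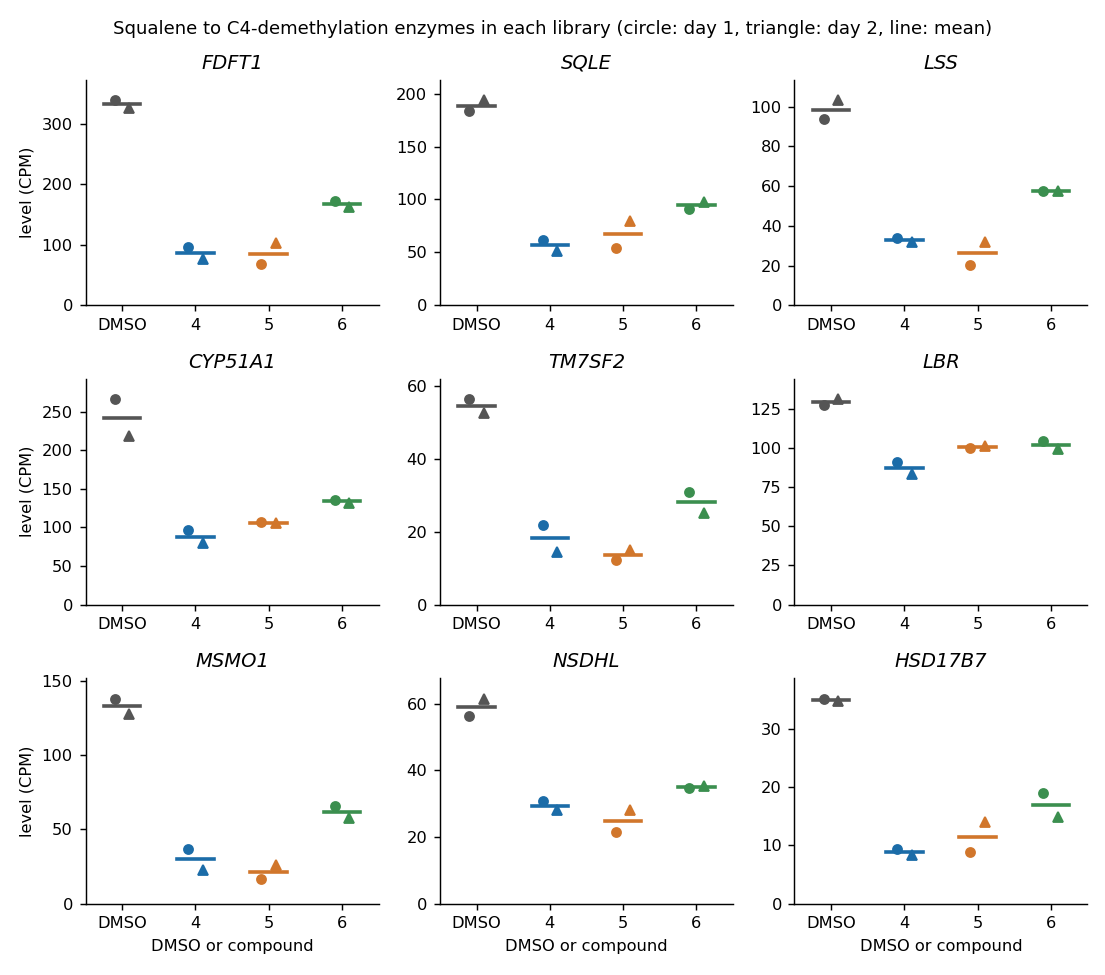
Level of each of the 9 genes in CPM (y axis, from 0) in each sample, by DMSO or compound (x axis). Circles are day 1, triangles day 2 and lines the mean of the pair. Every treated sample lies below both DMSO samples in every gene, with the narrowest gap relative to the level for LBR (127 and 131 CPM in DMSO, at most 105 in any treated sample).

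Squalene is made by FDFT1 (ENSG00000079459, chromosome 8: 11795573 to 11839309, plus strand, GRCh38), squalene synthase, which joins a pair of farnesyl pyrophosphate molecules. FDFT1 was at 338 and 326 CPM in DMSO, 97.1 and 75.8 under compound 4, 68.1 and 103 under compound 5, and 172 and 162 under compound 6. The groups of compounds 4 and 5 overlapped, and compound 6 lay between them and DMSO. FDFT1 fell under compounds 4 and 5, with log2-fold changes of −1.94 (SE 0.19, adjusted p = 0.00145) and −1.95 (SE 0.19, adjusted p = 0.00188), which left 26.0% (95% interval 19.4 to 34.8) and 25.8% (19.3 to 34.5) of the DMSO level. Under compound 6 the log2-fold change was −0.99 (SE 0.18) and the adjusted p was 0.0505. SQLE (ENSG00000104549, chromosome 8: 124998497 to 125022283, plus strand) encodes squalene epoxidase, the oxygen-using step that is known as a control point of the pathway. SQLE was at 183 and 194 CPM in DMSO, 62.1 and 51.6 under compound 4, 54.3 and 79.6 under compound 5, and 90.8 and 98.1 under compound 6. It passed the test under all 3 compounds, with log2-fold changes of −1.73 (adjusted p = 0.00164), −1.49 (adjusted p = 0.00311) and −1.0 (adjusted p = 0.0478). About the same share of FDFT1 and SQLE remained under compound 6, 50.3% (37.9 to 66.8) and 50.1% (38.5 to 65.1).

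LSS (ENSG00000160285, chromosome 21: 46188141 to 46228824, minus strand) encodes lanosterol synthase, which folds epoxidised squalene into the first sterol, lanosterol. LSS was at 93.7 and 103 CPM in DMSO, 33.9 and 31.9 under compound 4, 20.4 and 31.9 under compound 5, and 57.5 and 57.4 under compound 6. The samples of compound 6 were nearly equal, and both lay well above those of compounds 4 and 5. LSS fell under compounds 4 and 5, with log2-fold changes of −1.58 (SE 0.18, adjusted p = 0.00301) and −1.90 (SE 0.18, adjusted p = 0.00188), and its change under compound 6 was −0.78 (adjusted p = 0.0726).

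The methyl group at C14 of lanosterol is removed by CYP51A1 (ENSG00000001630, chromosome 7: 92112151 to 92134803, minus strand), the only cytochrome P450 among the 9 enzymes. CYP51A1 was at 266 and 219 CPM in DMSO, 97.3 and 79.2 under compound 4, 107 and 106 under compound 5, and 136 and 132 under compound 6. The DMSO pair differed more than that of any other of the 9 genes, by 1.22-fold, and compounds 4, 5 and 6 followed each other upward without overlap. CYP51A1 passed the test under all 3 compounds, with log2-fold changes of −1.46 (SE 0.13, adjusted p = 0.00129), −1.19 (SE 0.13, adjusted p = 0.00305) and −0.86 (SE 0.13, adjusted p = 0.0379). It kept 36.4% (29.6 to 44.8), 43.8% (35.7 to 53.8) and 55.2% (45.0 to 67.6) of the DMSO level.

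The double bond left at C14 is reduced by either of a pair of enzymes, TM7SF2 (ENSG00000149809, chromosome 11: 65111845 to 65116384, plus strand) and LBR (ENSG00000143815, chromosome 1: 225401502 to 225428925, minus strand). LBR, the lamin B receptor, also ties the nuclear lamina and chromatin to the inner nuclear membrane. TM7SF2 was at 56.3 and 52.7 CPM in DMSO, 21.8 and 14.5 under compound 4, 12.1 and 15.0 under compound 5, and 31.0 and 25.2 under compound 6. LBR was at 127 and 131 CPM in DMSO, 91.4 and 83.7 under compound 4, 99.9 and 102 under compound 5, and 105 and 99.6 under compound 6. TM7SF2 fell under compounds 4 and 5, with log2-fold changes of −1.59 (adjusted p = 0.00391) and −2.0 (adjusted p = 0.00193), and had a change of −0.95 (adjusted p = 0.0563) under compound 6. LBR had the smallest change of the 9 genes under every compound. It was −0.56 (SE 0.10, adjusted p = 0.0118) under compound 4, which left 67.7% (58.0 to 79.0), and it was −0.36 (adjusted p = 0.0540) and −0.34 (adjusted p = 0.127) under compounds 5 and 6. With the day as a block, LBR passed the test under compound 5 (adjusted p = 0.0444), and 9 of 9 genes then fell under compound 5, where 4.04% of all genes did.

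The balance of the C14 reductases can be read within each sample, where it does not depend on normalisation. The log2 ratio of TM7SF2 to LBR counts was −1.18 and −1.31 in DMSO, −2.07 and −2.52 under compound 4, −3.04 and −2.76 under compound 5, and −1.75 and −1.98 under compound 6. All 6 treated samples were lower than both DMSO samples, and the mean was 1.11 lower (−2.35 ± 0.50 against −1.25 ± 0.10, SD). A two-sided exact permutation test that ignores the day gave p = 0.0357, the smallest that 28 arrangements allow. It pools the 6 samples of 3 compounds as 1 treated group, though the ratios of the compounds did not overlap. The SD of 0.50 therefore includes differences between compounds, and the p-value describes no single compound. Permuted within the day, the p was 0.0625, the smallest exact value that 16 arrangements allow, so the difference did not pass 0.05 and could not have. Gene length changes the level of such a ratio but not its difference between samples. Without DMSO replicate 1 or 2, compound 4 replicate 2, or compound 5 replicate 1 or 2, the difference was −1.17 to −0.97 and the exact p was 0.0952 or 0.143.

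The methyl groups at C4 are taken off in cycles by MSMO1, NSDHL and HSD17B7. MSMO1 (ENSG00000052802, chromosome 4: 165327623 to 165343160, plus strand) encodes the C4 methyl oxidase, which opens each cycle. It was at 138 and 128 CPM in DMSO, 36.7 and 23.0 under compound 4, 17.0 and 26.1 under compound 5, and 65.4 and 57.4 under compound 6. The treated levels overlapped between compounds 4 and 5, and the compound 4 pair differed by 1.60-fold, the widest replicate gap of the 9 genes. MSMO1 fell under compounds 4 and 5, with log2-fold changes of −2.16 (SE 0.23, adjusted p = 0.00219) and −2.61 (SE 0.24, adjusted p = 0.00164), which left 22.4% (15.6 to 32.1) and 16.4% (11.3 to 23.6). Under compound 6 the change was −1.11 (SE 0.22, adjusted p = 0.0563). The MSMO1 promoter printed above is the one with TCACNCCA and has 4 CCAAT matches.

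NSDHL (ENSG00000147383, chromosome X: 152830967 to 152869729, plus strand) encodes the dehydrogenase that removes the oxidised C4 group as carbon dioxide. It was at 56.4 and 61.5 CPM in DMSO, 30.7 and 28.1 under compound 4, 21.4 and 28.1 under compound 5, and 34.6 and 35.2 under compound 6. Its log2-fold change was −1.0 (adjusted p = 0.00576) under compound 4, −1.25 (adjusted p = 0.00314) under compound 5 and −0.75 (adjusted p = 0.0541) under compound 6. HSD17B7 (ENSG00000132196, chromosome 1: 162790702 to 162812817, plus strand) encodes the ketone reductase that closes each cycle. It was at 35.2 and 34.8 CPM in DMSO, 9.38 and 8.29 under compound 4, 8.89 and 14.1 under compound 5, and 18.9 and 14.9 under compound 6. HSD17B7 had the fewest counts of the 9 genes, at least 100 in each sample. It fell under both compound 4 and compound 5, with log2-fold changes of −1.99 (adjusted p = 0.00227) and −1.59 (adjusted p = 0.00482), and its change under compound 6 was −1.05 (adjusted p = 0.0541).

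**Figure D3:**
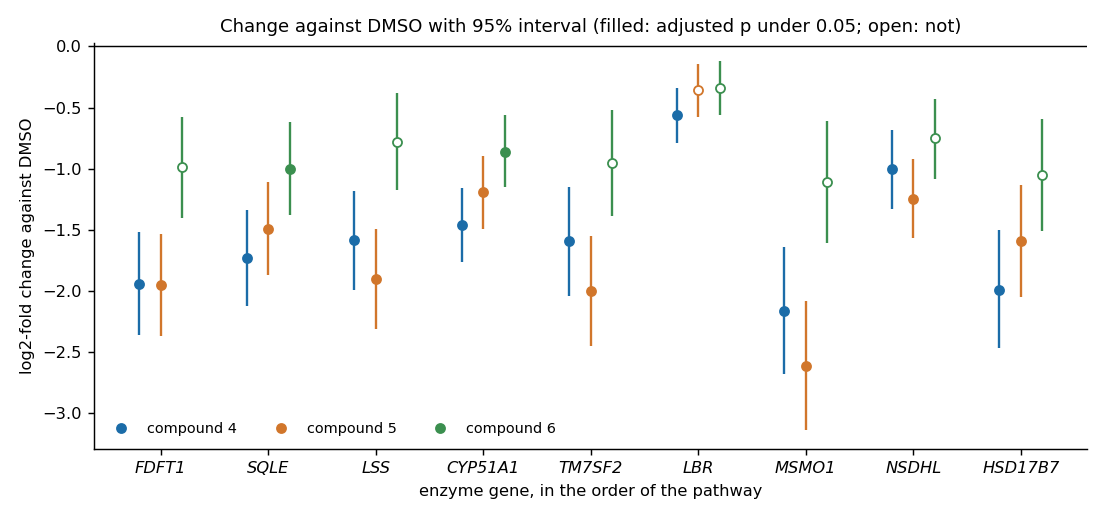
Log2-fold change against DMSO (y axis) of the 9 genes in the order of the pathway (x axis), with 95% intervals from the quasi-likelihood fit of 8 samples. Filled points passed an adjusted p of 0.05. Every point lies below 0, and LBR is the nearest to 0 under each compound (−0.56, −0.36 and −0.34).

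The 9 genes had a middle position under compound 6 that the threshold divided. SQLE and CYP51A1 passed, and the other 7 had adjusted p-values from 0.0505 (FDFT1) to 0.127 (LBR), while all 9 had an unadjusted p under 0.05, as did 18.6% of all genes. With the day as a block only CYP51A1 passed (adjusted p = 0.0301, against 0.0512 for SQLE), where 0.0896% of all genes fell. Other fits called more of the 9 genes lower and more of all genes too. The count was 9 with only the compound 6 and DMSO samples (3.49% of all genes), 8 with DESeq2 (1.37%), 8 with no filter on low counts (2.27%) and 7 with at least 10 counts in every sample (0.306%). The calls of SQLE and CYP51A1 were lost without DMSO replicate 1, DMSO replicate 2, compound 6 replicate 1 or compound 6 replicate 2. Fewer of all genes fell in those fits too. Without a sample of compound 4 or 5 more of the 9 fell, as did more of all genes. The median log2-fold change moved less, between −0.83 and −0.99 over all of these fits.

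The samples of a treated group differed in 1 direction across most of the 9 genes. Under compound 4 all 9 were lower in replicate 2 than in replicate 1, by a median of 1.20-fold. Under compound 5 the direction was opposite, with 8 of 9 higher in replicate 2 and a median fold of 1.47, where CYP51A1 was the exception with a fold of 1.01. The pairs of DMSO and compound 6 differed by a median of 1.07-fold and 1.06-fold. The column names mark replicate 1 of DMSO and of compound 4 as merged, and no other sample. The part of this in the replicate differences was not tested. The median log2-fold change under compound 5 was −1.32 without replicate 1 and −1.97 without replicate 2, and 8 of 9 passed the test in either case.

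Between compounds, each given at its own IC50, 4 of the 9 genes were higher under compound 6 than under compound 5. Compound 6 carries a cyclohexyl and a methyl group on each ring where compound 5 carries a pair of tert-butyl groups, and their bridges differ. Both compound 5 samples lay below both compound 6 samples in 8 of 9 genes, all but LBR, as in 25.1% of all genes, and 8 of 9 had an unadjusted p under 0.05, against 18.5% of all genes. By edgeR's quasi-likelihood test these 4 passed, where 1.03% of all genes did in either direction. MSMO1 was higher under compound 6 by 1.5 on the log2 scale (95% interval 0.98 to 2.03, adjusted p = 0.0209), LSS by 1.12 (0.72 to 1.53, adjusted p = 0.0241), TM7SF2 by 1.05 (0.59 to 1.5, adjusted p = 0.0457) and FDFT1 by 0.96 (0.55 to 1.37, adjusted p = 0.0453). For LBR the difference was 0.02 (−0.20 to 0.24), and for the other 4 it was 0.33 to 0.54 with adjusted p-values of at least 0.131. With only the 4 samples compared MSMO1 alone passed (adjusted p = 0.0328), where 0.376% of all genes did. Most or all of the 4 calls were lost without either DMSO sample, either compound 6 sample or compound 5 replicate 1. Fewer of all genes passed in those fits too. The median difference of the 9 genes was 0.54, and it became 0.34 when compound 5 replicate 1 was left out and 0.92 when its replicate 2 was.

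Compounds 4 and 6, which differ in a tert-butyl against a cyclohexyl group on each ring, did not separate at the threshold. All 9 genes had both compound 4 samples below both compound 6 samples, as did 19.6% of all genes, with a median log2 difference of −0.73, but 0 of 9 passed edgeR's quasi-likelihood test, and 0 of the 13400 genes (0%) did, of which 945 (7.05%) had an unadjusted p under 0.05. Unadjusted, 7 of the 9 were under 0.05. The largest differences were −1.05 for MSMO1 (−1.57 to −0.53, adjusted p = 0.296) and −0.95 for FDFT1 (−1.37 to −0.54, adjusted p = 0.217), and the smallest was −0.22 for LBR (−0.45 to 0). DESeq2 called 5 of the 9 (0.44% of all genes), namely FDFT1, SQLE, LSS, CYP51A1 and MSMO1, and 7 passed with no filter on low counts (1.12%). Some of the 9 passed without compound 5 replicate 2, a sample outside the comparison, where few of all genes did.

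Compounds 4 and 5 gave no difference past the threshold in the 9 genes, where 0.313% of all genes passed. The signs were mixed, with CYP51A1, SQLE, HSD17B7 and LBR lower and the other 5 higher under compound 4, and the median was 0.01. DESeq2 also called 0 of the 9, and none had an unadjusted p under 0.05, against 16.2% of all genes. The intervals allow differences of some size in either direction. They were widest for MSMO1 (0.45, −0.08 to 0.98) and HSD17B7 (−0.40, −0.89 to 0.10), and FDFT1 had 0.01 (−0.40 to 0.42). Samples overlapped in 5 of the 9 genes, and 44.5% of all genes did not overlap. CYP51A1 and LBR were lower under compound 4 without overlap, and LSS and NSDHL higher, each of these 2 by a narrow margin (LSS 31.94 against 31.92 CPM).

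**Figure D4:**
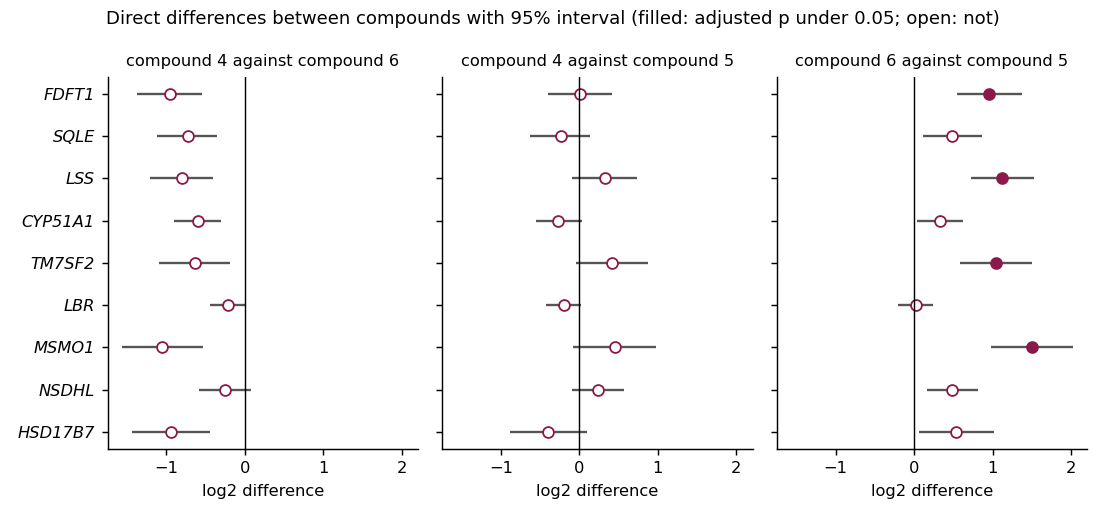
Log2 difference in level (x axis) of each of the 9 genes (y axis) between compounds, with 95% intervals, in 3 panels. Filled points passed an adjusted p of 0.05. FDFT1, LSS, TM7SF2 and MSMO1 were higher under compound 6 than under compound 5, and no gene passed between compounds 4 and 6 or 4 and 5.

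Per kilobase of merged exons, which allows genes to be compared, the order of the levels in DMSO was CYP51A1 (67.6 ± 9.32 CPM per kilobase), FDFT1 (63.9 ± 1.69), MSMO1 (45.9 ± 2.50), SQLE (43.8 ± 1.68), NSDHL (29.5 ± 1.81), LBR (24.6 ± 0.48), TM7SF2 (16.0 ± 0.75), LSS (13.6 ± 0.94) and HSD17B7 (7.32 ± 0.06, SD, n = 2). CYP51A1 and FDFT1 overlapped in their samples, as did MSMO1 and SQLE, and the other neighbours did not. The order rests on the length used. With the length of the principal transcript FDFT1 came first (125), followed by CYP51A1 (75.5), SQLE (63.7) and MSMO1 (58.5), and LSS came last (19.9). The 4 highest genes were these 4 under each length tried.

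Some counts of the 9 genes could be shared with other genes. CYP51A1 shares 2844 bases of exon on the same strand with the gene ENSG00000285772, which had no count, and 99 bases with ENSG00000285953, which had at most 46 counts in a sample against at least 1037 for CYP51A1. The pseudogenes CYP51A1P1, CYP51A1P2 and CYP51A1P3 had at most 3 counts each. HSD17B7P2, a pseudogene of HSD17B7, had 20 to 65 counts against 100 to 415 for HSD17B7, and fell with it under compounds 4 and 5 (log2-fold changes −1.62 and −1.39, adjusted p = 0.0108 and 0.0178). Reads of these near-identical copies can be divided between them, so the levels of HSD17B7 are uncertain by that share. TM7SF2 overlaps VPS51 by 16 bases, and genes on the other strand of FDFT1, LSS and CYP51A1 had at most 3 counts in a sample.

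Genes on either side of the 9 in the pathway were counted in the same way. The mevalonate arm makes farnesyl pyrophosphate. In it 7 of 8 genes fell under compound 4, 7 of 8 under compound 5 and 3 of 8 under compound 6. Over all genes tested, 3.91%, 2.95% and 0.0821% fell. The medians of the arm were −1.79, −1.54 and −0.88. The lowest under compounds 4 and 5 was HMGCS1, which makes HMG-CoA, at −2.17 (adjusted p = 8.42e-05) and −2.22 (adjusted p = 0.000192). PMVK, phosphomevalonate kinase, named after its values were seen, did not pass under any compound (0.09, −0.53 and 0.02). Of the 4 enzymes that end the synthesis, 4, 4 and 1 fell, and the lowest was DHCR7, the last reductase, at −1.47 (adjusted p = 0.00499) and −1.56 (adjusted p = 0.00475) under compounds 4 and 5, and EBP at −0.92 (adjusted p = 0.0478) under compound 6. With the day as a block EBP no longer passed under compound 6 (adjusted p = 0.0571). Without DMSO replicate 2 the counts under compounds 4 and 5 were lower in both lists. The last-step count under compound 4 was also lower without compound 4 replicate 2. Under compound 6 the calls of both lists were lost without DMSO replicate 2 or compound 6 replicate 2. Fewer of all genes fell in each of these fits too. DESeq2 called 7 of 8 and 4 of 4 lower under compound 6, and 1.37% of all genes.

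In the branches that use farnesyl or isopentenyl pyrophosphate for other products, 0 of 8 genes fell under any compound, by edgeR and by DESeq2, and their median log2-fold changes were 0.14, 0.08 and 0. DHDDS, a subunit of the enzyme that makes dolichol, rose by 0.66 (adjusted p = 0.0371) under compound 4, a call lost in 6 of the 8 fits that leave out 1 sample, those without a DMSO, compound 4 or compound 6 sample. With the day as a block NUS1, the other subunit, passed as higher under compound 5 (adjusted p = 0.0425). At an unadjusted p under 0.05 there were 1, 3 and 2 of the 8, against 27.5%, 28.4% and 18.6% of all genes.

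The oxidases among the 9 genes draw electrons from partner proteins. Of 9 genes for such partners and for scaffolds 2 fell under compound 4, 2 under compound 5 and 0 under compound 6. Over all genes tested, 3.91%, 2.95% and 0.0821% fell. The medians of the 9 partner genes were −0.18, −0.18 and −0.09. Under compound 6, 3 of 9 had an unadjusted p under 0.05 (18.6% of all genes) and DESeq2 called 3 lower (1.37%). ERG28, which holds the C4 demethylation enzymes together, was the lowest under compounds 4 and 5 (−1.36, adjusted p = 0.00411, and −1.52, adjusted p = 0.00311) and had −0.82 (adjusted p = 0.0581) under compound 6. It was at 42.3 and 45.5 CPM in DMSO and at 20.4 and 14 under compound 4 and 14.3 and 16.2 under compound 5. POR, the reductase that supplies CYP51A1 and SQLE with electrons, rose by 0.49 (adjusted p = 0.0206) under compound 5, from 555 and 530 CPM to 798 and 727. Without DMSO replicate 2 the calls under compound 4 were lost. The count under compound 5 was lower and the call of POR was lost without either DMSO sample or compound 5 replicate 1. Fewer of all genes passed in each of these fits too. The other genes that fell were PGRMC1 under compound 4 (−0.65) and CYB5B under compound 5 (−0.59), named after their values were seen.

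Of 10 genes of sterol sensing and uptake, 9 were tested. With compound 4, 3 fell (3.91% of all genes), and with compound 5, 4 fell (2.95%). With compound 6 the count was 0, while 3 of 9 had an unadjusted p under 0.05 (18.6% of all genes) and DESeq2 called 0. Genes that fell, named after their values were seen, were SREBF2, which encodes SREBP-2 (−0.55 and −0.64 under compounds 4 and 5), the sterol carrier STARD4 (−1.01 and −1.41) and, under compound 5, the SREBP protease MBTPS2 (−0.45), whose call was lost when any 1 sample was left out. INSIG1 was listed at 0 in all 8 samples and was not tested. Whether this comes from the cells, the index or the counting is not known here. Without DMSO replicate 2 the counts under compounds 4 and 5 were lower, and the count under compound 4 was also lower without compound 4 replicate 2. The SREBF2 change was −0.64 to −0.47 under compound 4 and −0.69 to −0.60 under compound 5 when single samples were left out. Its calls under both compounds were lost without either DMSO sample. They were also lost without compound 4 replicate 2 for compound 4, and without compound 5 replicate 1 for compound 5. Fewer of all genes fell in these fits too.

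**Figure D5:**
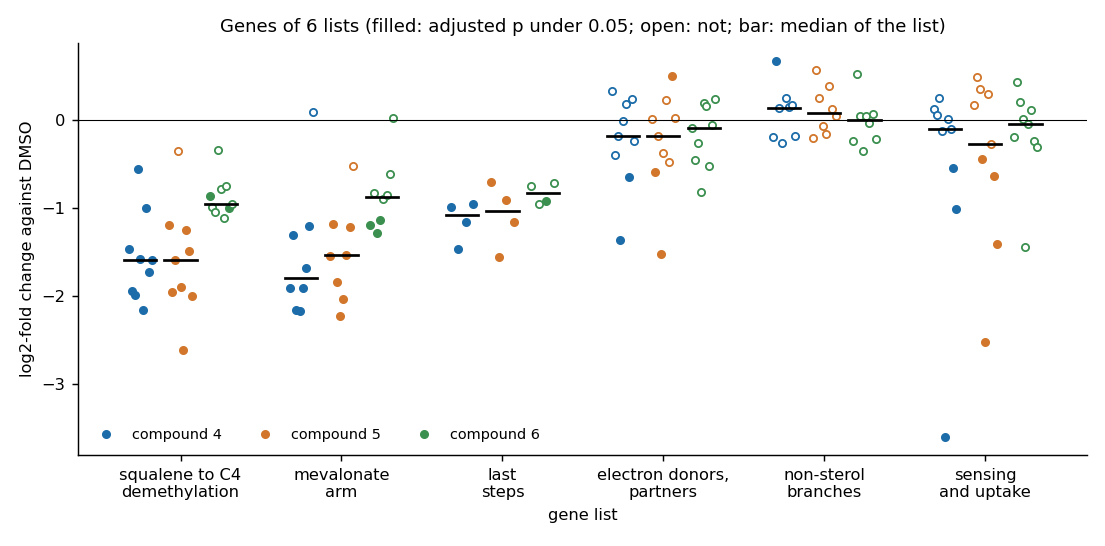
Log2-fold change against DMSO (y axis) of each tested gene in 6 lists (x axis), coloured by compound. Filled points passed an adjusted p of 0.05 and bars are the median of a list. The 9 squalene to C4-demethylation genes, the mevalonate arm and the last steps lie mostly below 0, and the non-sterol branches have medians of 0.14, 0.08 and 0.

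Over all 8 samples, the genes whose profile was most like the median profile of the 9 were MVD, DHCR7, SLC23A1, SMIM24 and ACAT2, among 12720 genes with a mean of at least 1 CPM. Likeness was the root mean square difference in log2 CPM from the DMSO mean, and it was 0.13 for MVD, 0.14 for DHCR7, 0.15 for SLC23A1, 0.18 for SMIM24 and 0.19 for ACAT2. MVD and ACAT2 are genes of the mevalonate arm. Among the 9, SQLE was the nearest to their median profile (0.10) and LBR (0.90) and MSMO1 (0.58) were the farthest, LBR with the smallest changes and MSMO1 with the largest. The points share their libraries and the DMSO mean, so these distances are descriptions.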

How the data were processed

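CYP2C19-overexpressing HepG2 cells in 4 groups of 2 samples were analysed by RNA sequencing from directional libraries. The authors estimated transcript abundance with Salmon on a GENCODE 38 index, summarized it with tximeta, and deposited gene counts without normalization for 60230 genes. The submitters' processing notes name FastQC 0.12.0, Salmon 1.5.0, DESeq2 1.38.3 and GRCh38. Whether the strand of the reads was used in counting is not given in the sources used here, and tximeta's length offsets were not used.

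The deposited counts were fitted with edgeR 4.0.16 (R 4.3.3). TMM factors were used, filterByExpr at a minimum count of 10 kept 13400 genes, and the quasi-likelihood test was fitted to all 8 samples without a block, with Benjamini-Hochberg adjustment over all genes tested and a threshold of 0.05. CPM are counts scaled by the TMM library sizes, and 95% intervals come from the fit. The TM7SF2 to LBR ratio, with 0.5 added to each count, was tested by exact permutation over samples, and within the day. The members and gene lists were chosen with earlier results of these data known. Named genes are the 9 members, the lowest and highest gene past the threshold in each list, genes that overlap or copy a member, and the 5 genes nearest to the members' median profile. Some genes of the lists are counted but not reported singly here.

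The alternatives were DESeq2 1.42.0, the day as a replicate block, a fit of the 4 samples of a comparison alone, size factors of DESeq2 in edgeR, no filter, at least 10 counts in every sample, and each sample or replicate left out. The labels' day is the source of the pairing, and replicate differences correlated by −0.14 to 0.20 between groups across 13400 genes. Gene positions and lengths are from GENCODE 29 (GRCh38), and promoters from RefSeq. The script was tested on simulated data. Figures were made in Python 3.11.15 with matplotlib 3.10.9. The coefficient of variation between replicates was 0.122 across genes, and intervals cover the spread between these samples.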

Additional observations from a re-analysis of the deposited data

How the results depend on the processing

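Over the alternatives no gene among the 9 changed direction in a comparison it passed, and of the tested single-gene results against DMSO and between compounds 656 stayed on their side of the threshold, 60 newly passed and 40 no longer passed. The count of the 9 genes that fell under compound 6 was 2, where 0.0821% of all genes fell. It was 8 with DESeq2 (1.37% of all genes), 1 with the replicate block by day (0.0896%) and 9 with only the 4 samples compared (3.49%). With no filter it was 8 (2.27%), and with at least 10 counts in every sample 7 (0.306%). It fell without a DMSO or compound 6 sample and rose without a compound 4 or 5 sample, as did the count over all genes. Between compounds 4 and 6 the count of 0 (0% of all genes) became 5 with DESeq2 (0.44%) and 7 with no filter (1.12%). When single samples were left out, few or none of the 9 passed, and few or none of all genes. Between compounds 6 and 5 the count of 4 became 1 with only the 4 samples compared and 0 to 3 when single samples were left out. The cause of these changes was not tested, and leaving out a sample also leaves fewer residual degrees of freedom.

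Under compounds 4 and 5 the counts of 9 and 8 were 7 to 9 and 7 to 8 when single samples were left out. LBR lost its call under compound 4 without either DMSO sample or compound 4 replicate 2, NSDHL without DMSO replicate 2 or compound 4 replicate 2, and HSD17B7 under compound 5 without DMSO replicate 2. The median log2-fold change under compound 4 was −1.88 to −1.47 and under compound 6 −0.99 to −0.83 when samples or a replicate number were left out, and between compounds 6 and 5 it was 0.33 to 1.08. With a whole replicate number left out no test was possible. The ratio of TM7SF2 to LBR differed by −1.23 to −0.97 when samples were left out, with an exact permutation p of 0.143 without a DMSO sample, the smallest then possible, and of at most 0.0952 without a treated one. With the day as a replicate block the difference was the same, −1.11, and the exact permutation p was 0.0625, the smallest then possible (an alternative chosen after seeing the data). The replicate block changed no other call among the 9 genes than LBR under compound 5 and SQLE under compound 6. It also moved ACAT2 out of the threshold (adjusted p = 0.0584) and MVD into it (adjusted p = 0.0422) under compound 6. Levels per kilobase moved with the length used.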

Other observations

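LBR is shared by sterol synthesis and the nuclear envelope, and 6 genes of its surroundings at the nuclear envelope were looked at beside it. Under compound 4, 2 of 6 fell, where 3.91% of all genes did. LMNB1, which encodes a B-type lamin, was at 139 and 161 CPM in DMSO and at 74.7 and 64.6 under compound 4 (log2-fold change −1.11, SE 0.20, adjusted p = 0.0126 by edgeR's quasi-likelihood test), a call lost without DMSO replicate 2 or compound 4 replicate 2. LMNB2, the other B-type lamin gene, did not pass by the same test under compound 4 (−0.30, adjusted p = 0.197) or compound 5 (−0.03, adjusted p = 0.900). TMPO, named after its values were seen, was at −0.64 (adjusted p = 0.0430), and its call was kept in 2 of the 8 fits without a single sample. Under compounds 5 and 6, 0 of 6 passed, with 2 of 6 at an unadjusted p under 0.05 in each (28.4% and 18.6% of all genes) and 1 of 6 called by DESeq2 in each, and LMNB1 was at −0.73 (adjusted p = 0.0502) and −0.84 (adjusted p = 0.0796). With the day as a replicate block LMNB1 passed under compound 5 (adjusted p = 0.0451). The median log2-fold changes of the 6 genes were −0.21, 0.05 and −0.16.

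Of 6 genes of the LXR pathway, which responds to oxysterols, 5 were tested and ABCG1 was listed at 0 in all 8 samples. As for INSIG1, the source of this is not known here. ABCA1, which exports cholesterol, was at 87.9 and 84.4 CPM in DMSO and fell to 42.1 and 45.2 under compound 4 (−0.98, SE 0.14, adjusted p = 0.00563), a call lost without DMSO replicate 2. Under compound 5 it was at 58.2 and 46.0 CPM (−0.73, adjusted p = 0.0171), a call lost without either DMSO sample. Under compound 6 ABCA1 was at 89.4 and 75.2 CPM, 1 above and 1 below both DMSO samples. MYLIP, a ubiquitin ligase, was at 5.23 and 5.69 CPM in DMSO, at 2.96 and 3.19 under compound 5 (−0.82, adjusted p = 0.0459, lost when any single sample was left out) and at 9.32 and 9.10 under compound 6 (0.75, adjusted p = 0.108). Under compound 6, 0 of the 5 passed by edgeR or DESeq2, and 2 had an unadjusted p under 0.05, against 18.6% of all genes. The median log2-fold changes of the 5 were −0.06, −0.31 and 0.12.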
